A study of Mus musculus with 18 samples.

Results

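The Toll-like receptor family is described here in microglia and macrophages taken from the brains of young mice, aged mice and aged mice with stroke. The 10 genes (Tlr1 to Tlr9 and Tlr13) were chosen by symbol, as the lines of the deposited count table whose Ensembl identifiers carry those names. All 10 of the 57010 genes in the table were found, and all 10 passed the low-count filter that left 15528 genes for testing. Toll-like receptors are sensors of microbial molecules and of some products of tissue damage. Those of the cell surface (Tlr1, Tlr2, Tlr4, Tlr5 and Tlr6) bind mainly lipids and proteins, and those of the endosome (Tlr3, Tlr7, Tlr8, Tlr9 and Tlr13) bind nucleic acids. After binding, adaptors such as Myd88 and Ticam1 pass the signal to NF-kappaB and interferon regulatory factors, and in the brain microglia are among the main cells that carry these receptors.

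Bulk RNA sequencing was done on 18 libraries in 6 groups of 3, all from male wild-type mice. The groups were aged mice with stroke given bexarotene, aged mice with stroke given vehicle, aged mice given bexarotene, aged mice given vehicle, young mice given bexarotene and young mice given vehicle. Aged mice were 18 to 20 months old and young mice 2 to 4 months old, and the stroke was made by occlusion of the middle cerebral artery (MCAo). Bexarotene, which activates the nuclear receptor RXR (retinoid X receptor), was injected into the peritoneum at 5 mg/kg, beginning 24 hours after surgery and repeated daily for 2 days, and the vehicle was 3% DMSO in saline. Cells were taken on day 3. The labels do not say what surgery the mice without stroke had, and there was no young group with stroke, so a stroke effect is known only for aged mice. Cells were selected with CD11b beads after depletion with Ly6G beads, so each library mixed microglia with other CD11b-positive cells of the brain. The replicates are biological replicates by their labels. In bulk RNA of this kind, fewer cells of a type and less RNA per cell cannot be told apart.

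Library totals ran from 16206144 to 29359943 counts with stroke and from 7582511 to 11852638 counts without stroke. Values below are CPM (counts scaled to a common library size, here by the trimmed mean of M-values), or CPM per kilobase of exon where genes are compared with each other. The receptor with the fewest reads, Tlr9, had 12 to 91 counts per library, and Tlr8 had 66 to 1326. Changes were called at an adjusted p under 0.05 in edgeR's quasi-likelihood test, adjusted by Benjamini and Hochberg over all 15528 genes, and fold changes are on the log2 scale with their standard error (SE).

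Per kilobase, the most abundant receptor was Tlr2 in both stroke groups and Tlr13 or Tlr7 in the 4 groups without stroke. Tlr2, which recognises bacterial lipoproteins, averaged 211 ± 10.8 CPM per kilobase in aged stroke bexarotene libraries and 228 ± 33.2 in aged stroke vehicle libraries, against 78.9 ± 11.6 in aged bexarotene and 102 ± 17.0 in aged vehicle libraries (SD, n = 3 each). In young mice it averaged 54.9 ± 13.2 CPM per kilobase with bexarotene and 70.0 ± 5.80 with vehicle. With stroke Tlr2 stood apart from the next receptor, Tlr13, in every library of both groups.

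Tlr13, a mouse receptor of bacterial ribosomal RNA, and Tlr7, a receptor of single-stranded RNA, followed in both stroke groups at 129 ± 15.8 and 75.1 ± 12.1 CPM per kilobase with bexarotene and at 144 ± 0.426 and 79.2 ± 11.7 with vehicle. In aged vehicle libraries the ranges of Tlr13 (115 ± 13.3 CPM per kilobase), Tlr7 (107 ± 21.9) and Tlr2 overlapped from neighbour to neighbour, so these 3 were not separated in level. In young vehicle libraries Tlr7 (129 ± 15.5) and Tlr13 (125 ± 7.26) overlapped each other and both lay above Tlr2, whose range overlapped that of Tlr4 (67.1 ± 5.76). Tlr4, the receptor of bacterial lipopolysaccharide, Tlr3, a receptor of double-stranded RNA, and Tlr1 and Tlr6, the dimer partners of Tlr2, held the 4 ranks below these 3 in the groups without stroke. With stroke and vehicle Tlr8 (14.7 ± 3.38) overlapped Tlr6 (13.7 ± 1.11), and with stroke and bexarotene Tlr8 (9.93 ± 2.81) lay just below Tlr6 (14.4 ± 0.903). Tlr5, the receptor of flagellin, Tlr8 and Tlr9 were the lowest 3 in the 4 groups without stroke, and Tlr9, a receptor of DNA with unmethylated CpG, was the lowest of the 10 in every group, at 0.797 to 1.31 CPM per kilobase on average.

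**Figure D1:**
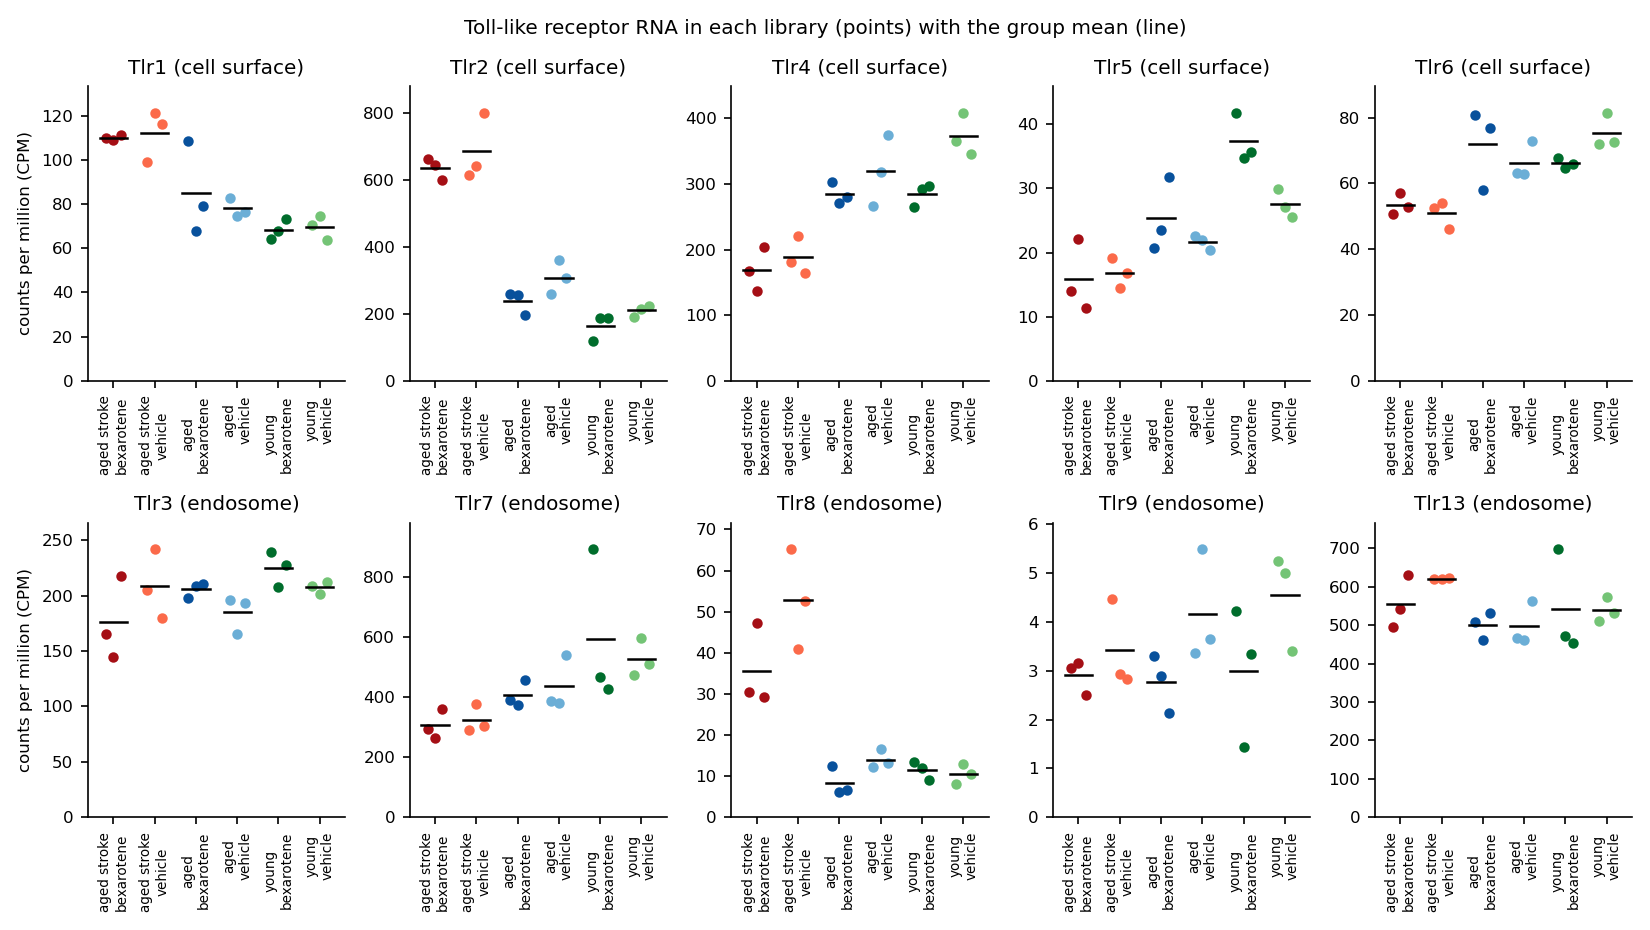
Level of each receptor gene in CPM (y axis, linear from 0, a separate scale per gene) in each of the 18 libraries (points), with the mean of each group of 3 (line). Tlr2 and Tlr8 are highest in the 6 stroke libraries, where Tlr2 lies between 600 and 802 CPM, and Tlr4 and Tlr6 are lowest there. The first young bexarotene library stands above the other 17 for Tlr7, at 892 CPM.

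Receptors were called in both stroke comparisons, and they changed in both directions. Under bexarotene, 6 of 10 receptors were called in aged stroke against aged mice, beside 48.0% of all genes tested. Higher were 3 (Tlr1, Tlr2 and Tlr8), beside 26.8% of all genes, and lower were 3 (Tlr4, Tlr5 and Tlr6), beside 21.2%. Under vehicle 5 of 10 were called, beside 48.3% of all genes, with the same 3 higher (27.2% of all genes) and 2 lower (Tlr4 and Tlr6, beside 21.1%). Of the 10 receptors, 5 were called with the same sign in both comparisons, which share no library, beside 39.8% of all genes tested. The share of receptors called was thus near that of all genes, and the count alone does not set the family apart. The median log2 fold change of the 10 receptors was -0.08 under bexarotene and -0.05 under vehicle, beside medians of 0.00 and 0.02 over all genes. The 2 stroke groups did not overlap the matching groups without stroke for 6 of 10 receptors under bexarotene (56.3% of all genes) and for 8 of 10 under vehicle (56.1% of all genes).

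**Figure D2:**
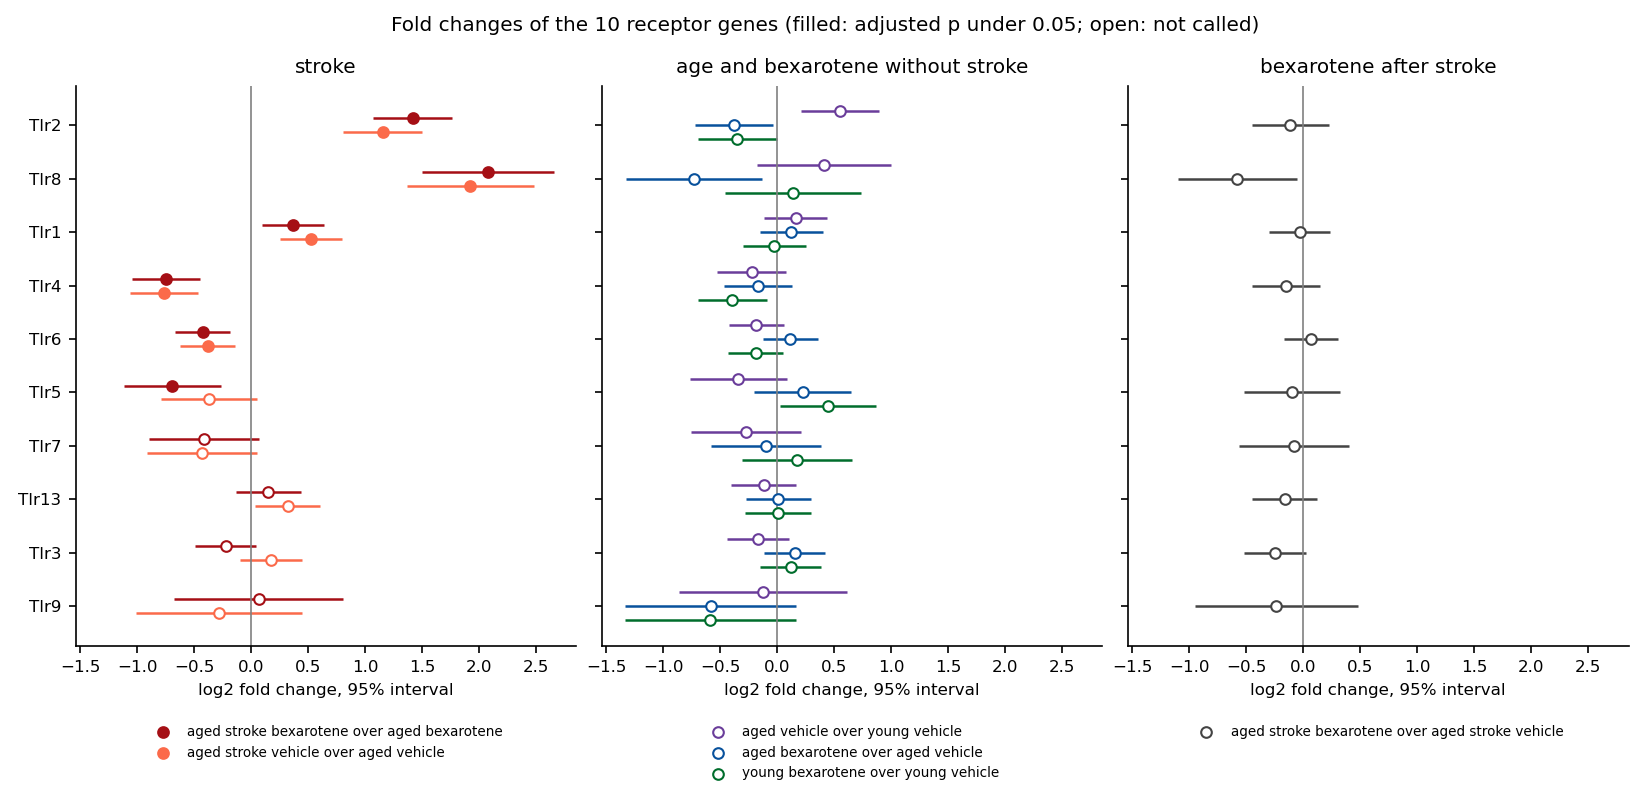
Log2 fold change (x axis, linear) of the 10 receptors with the 95% interval of the model, for stroke (left), for age and bexarotene without stroke (middle) and for bexarotene after stroke (right). Filled points passed an adjusted p under 0.05 and open points did not. Tlr2 and Tlr8 lie farthest to the right under stroke, Tlr4 to the left, and no point of the middle and right panels is filled.

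The cell types in the libraries also differed with stroke, and their part in the changes below was not tested. Of 10 markers of infiltrating monocytes and macrophages, 10 of 10 were higher with stroke under bexarotene and under vehicle. Their summed level was 2597 to 5046 CPM in aged stroke bexarotene libraries, against 136 to 193 CPM in aged bexarotene libraries. It was 2849 to 4709 CPM in aged stroke vehicle libraries, against 69.8 to 114 CPM in aged vehicle libraries. Of 10 markers of homeostatic microglia, 8 were lower with stroke in each comparison and 0 were higher. Their sum was 18576 to 23542 CPM with stroke and bexarotene, against 39655 to 46444 CPM with bexarotene alone, and 20224 to 20855 CPM with stroke and vehicle, against 42330 to 46449 CPM with vehicle alone. Microglial markers therefore remained the larger sum in all libraries, and none of the markers in either list was at 0 throughout a group.

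Neutrophil markers were measured after the Ly6G depletion. Of 12, 2 were higher and 1 lower with stroke under bexarotene, and 6 were higher and 0 lower under vehicle. Their sum was 1014 to 3755 CPM in aged stroke bexarotene, against 1064 to 2082 CPM in aged bexarotene libraries, and 1119 to 2675 CPM in aged stroke vehicle, against 682 to 945 CPM in aged vehicle libraries. Much of this sum was Csf3r, which averaged 423 CPM in aged stroke bexarotene, against 457 CPM in aged bexarotene libraries, and 437 CPM in aged stroke vehicle, against 477 CPM in aged vehicle libraries, not called in either comparison. Of 10 markers of border-associated macrophages, 4 were higher and 4 lower with stroke under bexarotene, and 5 were higher and 0 lower under vehicle. Their sum was 760 to 1065 CPM in aged stroke bexarotene, against 590 to 681 CPM in aged bexarotene libraries, and 1145 to 1198 CPM in aged stroke vehicle, against 538 to 687 CPM in aged vehicle libraries. None of these markers was at 0 throughout a group.

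Dendritic cells and B cells carry endosomal receptors. Markers of conventional dendritic cells (3 of 5 tested higher in each comparison) summed to 28.2 to 76.8 CPM with stroke, against 39.5 to 85.1 CPM in aged mice without stroke, where Xcr1 was at 0 in the bexarotene group. Their median log2 fold changes were 2.40 under bexarotene and 3.07 under vehicle. Much of the sum was Cd209a, not called in either comparison. It averaged 30.2 CPM in aged stroke bexarotene, against 46.5 CPM in aged bexarotene libraries, and 33.2 CPM in aged stroke vehicle, against 63.1 CPM in aged vehicle libraries. Markers of plasmacytoid dendritic cells summed to 127 to 145 CPM with stroke, against 155 to 172 CPM without, where Klk1 was at 0. Most of that sum was Tcf4, which fell to 114 CPM in aged stroke bexarotene, against 162 CPM in aged bexarotene libraries, and to 116 CPM in aged stroke vehicle, against 162 CPM in aged vehicle libraries. Of the 4 tested, 1 was higher and 1 lower under bexarotene and 2 were higher and 1 lower under vehicle, with median log2 fold changes of 0.89 and 0.90. Cox6a2 averaged 20.3 CPM in aged stroke bexarotene, against 2.3 CPM in aged bexarotene libraries, and 17.4 CPM in aged stroke vehicle, against 4.38 CPM in aged vehicle libraries, and was called in both. Markers of B cells summed to 17.3 to 25.8 CPM with stroke, against 18.4 to 27.2 CPM without, with Pax5 at 0 in the aged stroke bexarotene and aged vehicle groups. Most of that sum was Cd79b, which was not called (20.8 CPM in aged stroke bexarotene, against 22.4 CPM in aged bexarotene, and 17.6 CPM in aged stroke vehicle, against 21.5 CPM in aged vehicle libraries). Of the 3 tested, 0 were called under bexarotene and 1, Ms4a1, was higher under vehicle, with median log2 fold changes of 0.88 and 2.53.

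Markers of astrocytes summed to 105 to 222 CPM in aged stroke bexarotene, against 491 to 728 CPM in aged bexarotene libraries, and to 114 to 156 CPM in aged stroke vehicle, against 334 to 482 CPM in aged vehicle libraries. Of 6, 0 were higher and 1 lower under bexarotene and 1 was higher and 1 lower under vehicle, with median log2 fold changes of -0.94 and -0.96. The lower one was Slc1a3, which made up most of the sum, and the higher one Gfap, and none of the 6 was at 0 throughout a group. Markers of T and NK cells summed to 1.76 to 8.29 CPM in aged stroke bexarotene, against 1.03 to 1.32 CPM in aged bexarotene libraries, and to 1.71 to 5.85 CPM in aged stroke vehicle, against 0.959 to 3.17 CPM in aged vehicle libraries, where Cd3d and Cd3e were at 0. Of the 3 tested, 0 were called under bexarotene and 1, Nkg7, was higher under vehicle.

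**Figure D3:**
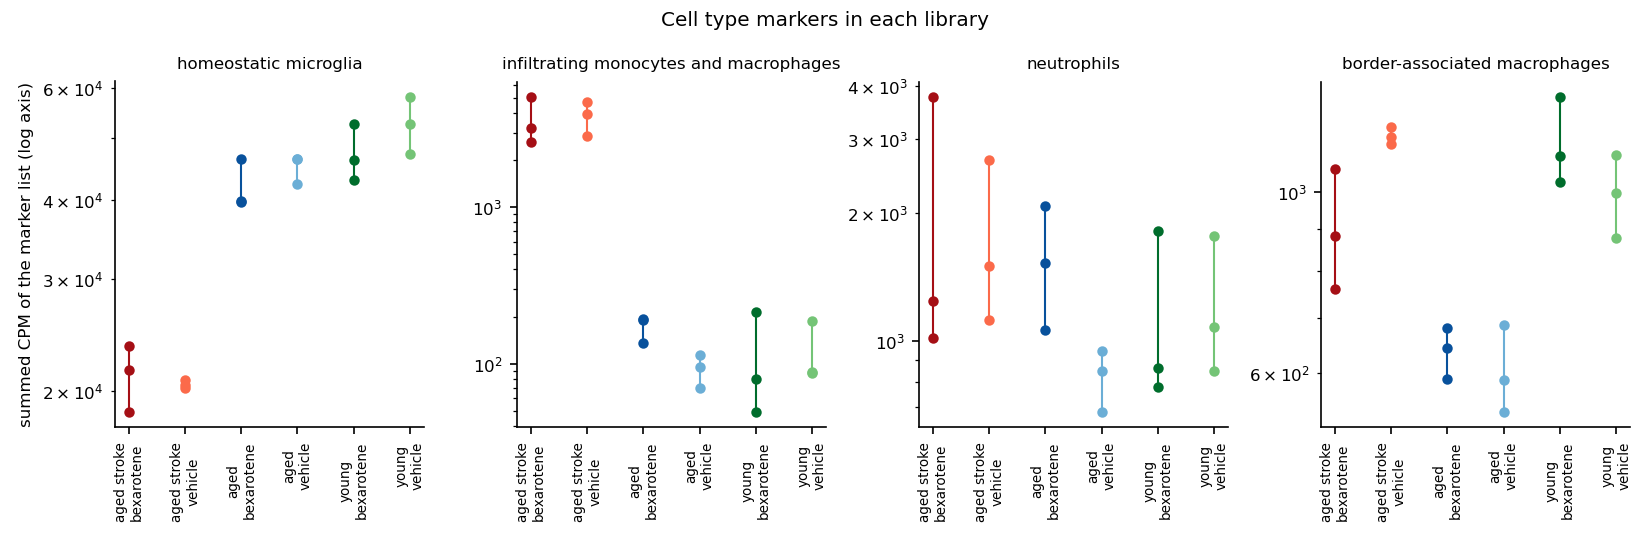
Summed CPM of 4 marker lists (y axis, log scale, a separate scale per list) in each library, with a line from the lowest to the highest library of each group. Infiltrating monocyte and macrophage markers are above 2597 CPM in the 6 stroke libraries and under 214 CPM in the other 12, and homeostatic microglia markers are lower with stroke.

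Tlr2 was the surface receptor with the largest change. The stretch upstream of its first exon is shown because Tlr2 was the most abundant receptor per kilobase with stroke and because its promoter held 3 matches to the NF-kappaB consensus. Of the 300 bases from 250 before to 50 after the RefSeq start site (build GRCm38.p6, minus strand), only the part before all annotated exons, chr3:83841768-83841858, is printed 5′ to 3′, with capitals for the overlapping pair of NF-kappaB matches that begin 173 and 172 bases before the start.
Tlr2: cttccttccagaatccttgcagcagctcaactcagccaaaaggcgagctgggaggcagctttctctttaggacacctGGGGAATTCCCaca
Tlr2 had 663, 645 and 600 CPM in the 3 aged stroke bexarotene libraries, against 259, 257 and 197 CPM in the 3 aged bexarotene libraries. It had 617, 643 and 802 CPM in the aged stroke vehicle libraries, against 258, 361 and 307 CPM in the aged vehicle libraries. All 6 stroke libraries lay above all 6 aged libraries without stroke. The log2 fold change with stroke was 1.42 (SE 0.16) under bexarotene, with an edgeR adjusted p of 1.5e-06, and 1.16 (SE 0.16) under vehicle, with an edgeR adjusted p of 1.43e-05. In linear terms Tlr2 was 2.68-fold higher under bexarotene and 2.23-fold higher under vehicle. The difference between the 2 stroke effects was 0.26 on the log2 scale (95% interval -0.22 to 0.74) and was not called (edgeR unadjusted p = 0.264).

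Tlr1 and Tlr6 are close relatives that each pair with Tlr2, Tlr1 for triacylated and Tlr6 for diacylated lipoproteins, and they moved in opposite directions. Tlr1 had 110, 109 and 111 CPM in aged stroke bexarotene libraries, against 108, 68.0 and 79.2 CPM in aged bexarotene libraries. It had 99.1, 121 and 116 CPM in aged stroke vehicle libraries, against 82.8, 74.7 and 76.5 CPM in aged vehicle libraries. The groups did not overlap in either comparison, but the first aged bexarotene library was almost level with the stroke libraries. Tlr1 rose by 0.37 (SE 0.13) on the log2 scale under bexarotene, with an edgeR adjusted p of 0.0256, and by 0.52 (SE 0.13) under vehicle, with an edgeR adjusted p of 0.00271. The call under bexarotene was lost without aged bexarotene replicate 2 (log2 0.22, edgeR adjusted p = 0.165) or 3 (0.32, adjusted p = 0.095), and without aged stroke bexarotene replicate 1 (0.37, adjusted p = 0.0548) or 3 (0.35, adjusted p = 0.0629).

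Tlr6 had 50.6, 57.2 and 52.7 CPM in aged stroke bexarotene libraries, against 80.7, 58.1 and 77.0 CPM in aged bexarotene libraries. It had 52.5, 54.1 and 46.3 CPM in aged stroke vehicle libraries, against 63.2, 62.9 and 72.9 CPM in aged vehicle libraries. Every stroke library was below every matching library without stroke, although the second libraries of the bexarotene pair were nearly equal. Tlr6 fell, with a log2 fold change of -0.43 (SE 0.11) under bexarotene, with an edgeR adjusted p of 0.00487, and -0.38 (SE 0.11) under vehicle, with an edgeR adjusted p of 0.0104. Without aged stroke vehicle replicate 3 the vehicle value was -0.31 and no longer called (edgeR adjusted p = 0.0595), and without the 6 libraries numbered 1 the bexarotene value was -0.31 (adjusted p = 0.118). Tlr1 and Tlr6 shared 454 stretches of 50 bases, 13.6% of those of Tlr1 and 12.3% of those of Tlr6, so reads in these stretches could have been counted for either gene or for neither. With other genes included, 513 stretches of Tlr1 (15.4%) were shared, with 307 genes in all. The promoter of Tlr6 is shown as the only one, among the 8 receptors whose promoters were searched, with matches to the interferon-stimulated response element, which was searched as GAAA, any pair of bases, and GAAA again. In the 250 bases before its RefSeq start, chr5:64959167-64959416 (GRCm38.p6, minus strand), the overlapping pair of matches, both on the opposite strand and beginning 116 and 110 bases before the start, is in capitals.
Tlr6: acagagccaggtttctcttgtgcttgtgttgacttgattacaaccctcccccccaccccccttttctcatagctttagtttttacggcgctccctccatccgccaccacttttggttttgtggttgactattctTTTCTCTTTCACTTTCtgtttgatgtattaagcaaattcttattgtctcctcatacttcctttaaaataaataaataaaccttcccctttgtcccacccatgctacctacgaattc

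Tlr4, which senses lipopolysaccharide together with Ly96 (MD-2) and Cd14, was lower with stroke. It had 167, 137 and 205 CPM in aged stroke bexarotene libraries, against 303, 271 and 280 CPM in aged bexarotene libraries. In aged stroke vehicle libraries it had 181, 220 and 164 CPM, against 266, 318 and 374 CPM in aged vehicle libraries. No stroke library reached the lowest aged library without stroke. Tlr4 fell, with a log2 fold change of -0.75 (SE 0.14) under bexarotene, with an edgeR adjusted p of 0.000296, and -0.76 (SE 0.14) under vehicle, with an edgeR adjusted p of 0.000244. Its level with stroke was thus 0.596 times that of aged bexarotene mice and 0.590 times that of aged vehicle mice.

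Tlr5, the flagellin receptor, was low throughout, with 201 to 407 counts per library. It had 14.0, 22.2 and 11.3 CPM in aged stroke bexarotene libraries, against 20.7, 23.5 and 31.8 CPM in aged bexarotene libraries. It had 19.1, 14.4 and 16.8 CPM in aged stroke vehicle libraries, against 22.6, 22.0 and 20.4 CPM in aged vehicle libraries. The second aged stroke bexarotene library lay inside the range of its comparison group, while the vehicle groups did not overlap. Tlr5 fell, with a log2 fold change of -0.69 (SE 0.20), under bexarotene, with an edgeR adjusted p of 0.00861, and the value without aged bexarotene replicate 3 was -0.49 and not called (edgeR adjusted p = 0.0714). Under vehicle the log2 fold change was -0.37 (SE 0.20) and was not called (edgeR adjusted p = 0.141). The difference between the 2 stroke effects was -0.32 (95% interval -0.92 to 0.28, edgeR unadjusted p = 0.276), so the data do not show that they differed.

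Among the 10 receptors, Tlr8 was the only endosomal one called with stroke, and it had the largest fold change of the family. Tlr12, an endosomal receptor outside the 10, was called lower with stroke in both comparisons, and its values are given further below. It is known in humans as a sensor of degraded single-stranded RNA, and it lies beside Tlr7 on the X chromosome. The 250 bases before its RefSeq start, chrX:167264330-167264579 (GRCm38.p6, minus strand), are shown for contrast with Tlr2, since no match to the NF-kappaB consensus or to the other 3 motifs searched was found there.
Tlr8: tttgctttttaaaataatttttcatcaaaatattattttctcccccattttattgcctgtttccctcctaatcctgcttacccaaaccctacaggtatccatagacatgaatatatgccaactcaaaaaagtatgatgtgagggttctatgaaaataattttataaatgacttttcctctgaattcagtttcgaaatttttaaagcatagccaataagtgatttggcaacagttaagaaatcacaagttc
Tlr8 had 30.4, 47.2 and 29.2 CPM in aged stroke bexarotene libraries, against 12.6, 6.12 and 6.69 CPM in aged bexarotene libraries. It had 65.2, 40.9 and 52.6 CPM in aged stroke vehicle libraries, against 12.2, 16.5 and 13.1 CPM in aged vehicle libraries. The lowest stroke library held more than any library without stroke. Tlr8 rose by 2.08 (SE 0.28) on the log2 scale under bexarotene, with an edgeR adjusted p of 7.55e-06, and by 1.92 (SE 0.26) under vehicle, with an edgeR adjusted p of 1.16e-05. These were 4.22-fold and 3.79-fold higher levels with stroke.

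Tlr7, the neighbour of Tlr8 in the genome, was not called in either stroke comparison. It had 293, 265 and 361 CPM in aged stroke bexarotene libraries, against 392, 374 and 458 CPM in aged bexarotene libraries. It had 289, 378 and 303 CPM in aged stroke vehicle libraries, against 387, 381 and 539 CPM in aged vehicle libraries. All stroke libraries lay below their comparison groups, but the log2 fold changes of -0.41 (SE 0.23) and -0.43 (SE 0.23) were not called (edgeR adjusted p = 0.15 under bexarotene and 0.132 under vehicle). Both became calls when each pair of groups was fitted alone (edgeR adjusted p = 0.0218 under bexarotene and 0.0402 under vehicle) and when no gene was filtered (adjusted p = 0.0112 and 0.00562). Over all alternatives, 6172 to 7790 of all genes were called under bexarotene (7450 in the main edgeR test). Under vehicle it was 6132 to 7794 (7497).

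Tlr13 had 496, 542 and 630 CPM in aged stroke bexarotene libraries, against 508, 461 and 532 CPM in aged bexarotene libraries. It had 621, 620 and 623 CPM in aged stroke vehicle libraries, against 467, 460 and 563 CPM in aged vehicle libraries. The vehicle groups did not overlap and the bexarotene groups did. The log2 fold changes were 0.15 (SE 0.14; edgeR adjusted p = 0.382) under bexarotene and 0.32 (SE 0.14; adjusted p = 0.058) under vehicle, neither called. The vehicle value passed in limma voom (0.33, adjusted p = 0.0447), with the pair of groups fitted alone (0.31, edgeR adjusted p = 0.0272) and without aged vehicle replicate 3 (0.39, adjusted p = 0.0404).

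Tlr3, which signals through Ticam1 alone, ranged from 145 to 242 CPM over all 18 libraries and its groups overlapped in both stroke comparisons. Its log2 fold change was -0.22 (edgeR adjusted p = 0.164) under bexarotene and 0.18 (adjusted p = 0.278) under vehicle. Without aged stroke bexarotene replicate 3 the bexarotene value was -0.42 and called (edgeR adjusted p = 0.00861). The exons of Tlr3 overlap those of the gene Gm45542 on the opposite strand by 381 bases, and since how strand was handled is not stated, reads of that stretch are uncertain. Tlr9 ranged from 1.43 to 5.48 CPM, overlapped in both stroke comparisons and had intervals of the log2 fold change from -0.67 to 0.81 under bexarotene and from -1.01 to 0.44 under vehicle, so sizeable differences in either direction were not excluded at this depth.

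Both the summed RNA of the 10 receptors and its make-up differed with stroke. The sum over the 10 receptors was 541 ± 26.2 CPM per kilobase in aged stroke bexarotene libraries, against 439 ± 20.3 in aged bexarotene libraries, and 592 ± 29.4 in aged stroke vehicle libraries, against 468 ± 48.3 in aged vehicle libraries. The groups did not overlap in either comparison. The lowest stroke library had 524, against at most 455 without stroke, under bexarotene, and 559 against at most 521 under vehicle. Tlr11 and Tlr12 are not part of this sum. Tlr12 averaged 9.89 CPM per kilobase in aged stroke bexarotene, against 23.5 in aged bexarotene libraries. It averaged 10.9 in aged stroke vehicle, against 30.2 in aged vehicle libraries. Tlr2 made up 39.1 ± 3.73% of this sum in aged stroke bexarotene libraries, against 18.0 ± 2.99% in aged bexarotene libraries, and 38.4 ± 4.20% in aged stroke vehicle libraries, against 21.9 ± 3.61% in aged vehicle libraries. In young mice the share of Tlr2 was 12.2 ± 4.47% with bexarotene and 14.5 ± 1.08% with vehicle. The shares are of a sum that contains Tlr2 itself, so a higher share of one receptor lowers those of the others.

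The surface receptors together held 54.1 ± 3.6% in aged stroke bexarotene libraries and 52.7 ± 3.05% in aged stroke vehicle libraries, against 41.0 ± 3.22% in aged bexarotene and 44.0 ± 3.61% in aged vehicle libraries. Young bexarotene libraries had 33.3 ± 8.38% and young vehicle libraries 38.2 ± 0.535%. The 2 stroke groups did not overlap the 4 others in this share, whose highest library without stroke was an aged vehicle library at 48.1%. The higher surface share with stroke was mainly that of Tlr2, and not of the class as a whole. Tlr4 held 5.61% in aged stroke bexarotene, against 11.7% in aged bexarotene libraries. It held 5.73% in aged stroke vehicle, against 12.2% in aged vehicle libraries. Mean shares of Tlr5 and Tlr6 were also lower with stroke, and that of Tlr1 was slightly higher.

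**Figure D4:**
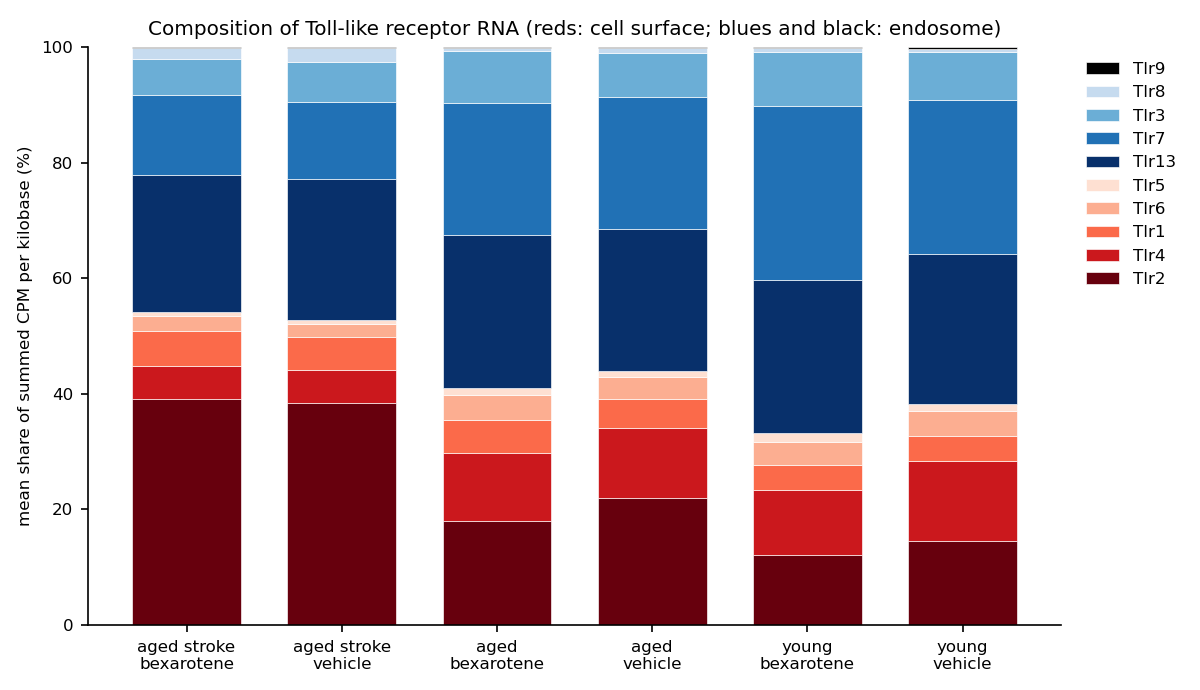
Mean share of each receptor (y axis, percent) in the summed CPM per kilobase of the 10 genes, per group of 3 libraries, with surface receptors in reds at the bottom and endosomal receptors in blues and black above. The Tlr2 segment is 39.1% and 38.4% in the stroke groups and 12.2% to 21.9% in the others, and the Tlr7 segment is smaller with stroke.

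Ratios within a library show the same contrasts without the total. The ratio of Tlr2 to Tlr4 per kilobase was 7.14 ± 1.65 in aged stroke bexarotene libraries, against 1.54 ± 0.228 in aged bexarotene libraries, and 6.90 ± 1.89 in aged stroke vehicle libraries, against 1.80 ± 0.291 in aged vehicle libraries. In young mice it was 1.07 ± 0.202 with bexarotene and 1.05 ± 0.133 with vehicle, so the levels of the pair were close to each other in young mice. The ratio of Tlr1 to Tlr6 was 2.29 ± 0.153 in aged stroke bexarotene, against 1.31 ± 0.175 in aged bexarotene libraries, and 2.46 ± 0.347 in aged stroke vehicle, against 1.32 ± 0.145 in aged vehicle libraries. The ratio of Tlr8 to Tlr7 was 0.138 ± 0.0578 in aged stroke bexarotene, against 0.0239 ± 0.0109 in aged bexarotene libraries, and 0.192 ± 0.0666 in aged stroke vehicle, against 0.0377 ± 0.0109 in aged vehicle libraries. Tlr8 thus stayed well under its neighbour in level even where it was highest.

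Age without stroke gave no called receptor in edgeR, 0 of 10 in aged vehicle against young vehicle mice, against 1.70% of all genes. At an unadjusted p under 0.05 there was 1 receptor, Tlr2, beside 13.1% of all genes, and DESeq2 called 1 (Tlr2 as well) and limma voom 0. Tlr2 had 258, 361 and 307 CPM in aged vehicle libraries, against 192, 216 and 225 CPM in young vehicle libraries, with no overlap. Its log2 fold change was 0.55 (SE 0.16; edgeR adjusted p = 0.106). In DESeq2 it was 0.57 (adjusted p = 0.0323), and the authors' deposited table lists Tlr2 at a log2 fold change of 0.39 with an adjusted p of 0.00187. Over leaving out each library and the other settings the edgeR and other values stayed positive, from 0.41 to 0.66, with adjusted p from 0.00134 to 0.423. Homeostatic microglia markers summed to 42330 to 46449 CPM in aged vehicle, against 47251 to 57988 CPM in young vehicle libraries, with 0 of 10 called and none at 0 throughout a group, and their part in the Tlr2 values was not tested.

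The groups of aged and young vehicle mice did not overlap for 4 of 10 receptors, against 18.4% of all genes. Besides Tlr2 these were Tlr1, with a log2 fold change of 0.16 (SE 0.13), Tlr3 at -0.17 (SE 0.13) and Tlr5 at -0.34 (SE 0.20), none called. Tlr8 was at 0.41 (SE 0.28), with 12.2, 16.5 and 13.1 CPM in aged and 8.02, 13.1 and 10.6 CPM in young vehicle libraries, which overlapped. Markers of border-associated macrophages summed to 538 to 687 CPM in aged vehicle and 877 to 1110 CPM in young vehicle libraries, with 3 of 10 called lower, none called higher and none at 0 in a group, and their part in these values was not tested.

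Bexarotene gave no called receptor in any of the 3 settings. In young mice 0 of 10 were called, against 0.509% of all genes, in aged mice 0 of 10, against 0.258%, and in aged mice with stroke 0 of 10, against 0.0580%. DESeq2 and limma voom also called 0 in each. At an unadjusted edgeR p under 0.05 there were 3 receptors in young mice (8.37% of all genes), 2 in aged mice (6.52%) and 1 after stroke (6.36%). Bexarotene and vehicle groups did not overlap for 4 receptors in young mice, 2 in aged mice and 0 after stroke, against 13.1%, 11.8% and 11.3% of all genes. The comparison in young mice shares the young vehicle libraries with the comparison of age, and that in aged mice shares the aged vehicle libraries with it.

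Tlr4 had 265, 292 and 296 CPM in young bexarotene libraries, against 365, 408 and 346 CPM in young vehicle libraries. The groups did not overlap, and the log2 fold change was -0.39 (95% interval -0.69 to -0.09; edgeR unadjusted p = 0.0133, adjusted p = 0.38). The authors' deposited table for this comparison lists Tlr4 at a log2 fold change of -0.33 with an adjusted p of 0.0245. In aged mice the log2 fold change of Tlr4 was -0.17 (95% interval -0.47 to 0.13) and after stroke -0.15 (-0.45 to 0.15).

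Tlr2 had 120, 189 and 188 CPM in young bexarotene libraries, against 192, 216 and 225 CPM in young vehicle libraries. The log2 fold change was -0.35 (95% interval -0.69 to -0.01) in young mice, -0.38 (-0.72 to -0.03) in aged mice and -0.11 (-0.45 to 0.23) after stroke, with edgeR adjusted p of 0.586, 0.716 and 0.99. It was negative in all 3 settings and passed the adjustment in none. Without the first young bexarotene library the value in young mice was -0.16 (edgeR adjusted p = 0.97), and without the third aged stroke vehicle library the value after stroke was 0.01 (edgeR adjusted p = 0.998). The first young bexarotene library, the lowest of all 18 for Tlr2, was also the highest for Tlr7 (892 CPM, against 467 and 426 CPM in the other young bexarotene libraries) and for Tlr13 (697 CPM, against 472 and 455 CPM).

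Tlr8 had 12.6, 6.12 and 6.69 CPM in aged bexarotene libraries, against 12.2, 16.5 and 13.1 CPM in aged vehicle libraries, with the first bexarotene library inside the vehicle range. The log2 fold change was -0.73 (95% interval -1.33 to -0.14; edgeR adjusted p = 0.61) in aged mice. After stroke it was -0.58 (-1.1 to -0.05; edgeR adjusted p = 0.72), where 30.4, 47.2 and 29.2 CPM with bexarotene stood against 65.2, 40.9 and 52.6 CPM with vehicle. In young mice it was 0.14 (-0.46 to 0.74). Without a filter on low counts, both the aged value (-0.75, edgeR adjusted p = 0.0123) and the value after stroke (-0.59, adjusted p = 0.0429) passed. Depending on the setting, up to 339 of all genes were called in aged mice (40 in the main edgeR test) and up to 419 after stroke (9). Neutrophil markers summed to 1064 to 2082 CPM in aged bexarotene, against 682 to 945 CPM in aged vehicle libraries, and infiltrating monocyte markers to 136 to 193 CPM, against 69.8 to 114 CPM. None of the 12 neutrophil and 10 monocyte markers was called by edgeR and none was at 0 throughout a group, and their part in the Tlr8 values was not tested.

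Tlr5 had 41.8, 34.7 and 35.7 CPM in young bexarotene libraries, against 29.9, 27.1 and 25.6 CPM in young vehicle libraries. These did not overlap, and the log2 fold change was 0.44 (95% interval 0.02 to 0.86; edgeR unadjusted p = 0.0396, adjusted p = 0.551). Astrocyte markers summed to 580 to 906 CPM in young bexarotene, against 299 to 420 CPM in young vehicle libraries, and to 491 to 728 CPM in aged bexarotene, against 334 to 482 CPM in aged vehicle libraries. None of the 6 was called by edgeR with bexarotene in young or aged mice and none was at 0 throughout a group, and their part in the Tlr4 and Tlr5 values was not tested. The bexarotene effect in aged minus that in young mice was called for 0 of 10 receptors and for 0 genes in all, a share of 0%, and 1 receptor (2.94% of all genes) had an unadjusted edgeR p under 0.05, namely Tlr8 at -0.87 (95% interval -1.71 to -0.03). The difference between aged mice with and without stroke was likewise called for 0 receptors and 0 genes (0%), with Tlr3 alone (4.11% of all genes) under an unadjusted p of 0.05, at -0.40 (-0.78 to -0.02). DESeq2 and limma voom called 0 receptors for both differences.

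Treated aged mice were also set against untreated young mice, which compares aged bexarotene with young vehicle libraries. Of the 10 receptors 0 were called in edgeR, against 3.10% of all genes, DESeq2 and limma voom called 0 as well, and 2 (Tlr1 and Tlr4) had an unadjusted p under 0.05, beside 15.9% of all genes. Groups did not overlap for 3 receptors (Tlr4, Tlr7 and Tlr9), against 21.3% of all genes. Tlr2 had 259, 257 and 197 CPM in aged bexarotene, against 192, 216 and 225 CPM in young vehicle libraries, which overlapped, with a log2 fold change of 0.17 (95% interval -0.17 to 0.52). For Tlr4 the value was -0.39 (95% interval -0.69 to -0.09; edgeR adjusted p = 0.163).

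The counts of the pathway lists stand beside 26.8% of all genes called higher and 21.2% lower with stroke under bexarotene, and 27.2% higher and 21.1% lower under vehicle, and nothing particular to a list is read from them. Of 6 co-receptors and receptor homologues, 3 were higher and 1 lower with stroke in each comparison, and the median log2 fold change was 0.57 under bexarotene and 0.90 under vehicle. Ly96 (MD-2), which holds lipopolysaccharide on Tlr4, averaged 23.8 ± 2.98 CPM in aged stroke bexarotene, against 34.1 ± 3.82 CPM in aged bexarotene libraries, and 25.2 ± 1.5 CPM in aged stroke vehicle, against 36.5 ± 2.52 CPM in aged vehicle libraries. It fell in both, with log2 fold changes of -0.52 and -0.53 (edgeR adjusted p = 0.00399 and 0.00313). Cd180 (RP105), a homologue of Tlr4 that lacks its signalling domain, averaged 174 ± 29.2 CPM in aged stroke bexarotene, against 67.8 ± 6.07 CPM in aged bexarotene libraries, and 161 ± 32.1 CPM in aged stroke vehicle, against 61.3 ± 10.5 CPM in aged vehicle libraries. It rose by 1.36 and 1.39 (edgeR adjusted p = 1.35e-06 and 1.19e-06).

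Ly86 (MD-1), which binds Cd180 as Ly96 binds Tlr4, rose by 0.90 under bexarotene and 0.71 under vehicle (edgeR adjusted p = 1.55e-06 and 2.22e-05). Cd36, a scavenger receptor that works with Tlr2 and Tlr6, rose by 0.48 and 1.09 (edgeR adjusted p = 0.0183 and 2.14e-05). Cd14, which hands lipopolysaccharide to Ly96 and Tlr4, had log2 fold changes of 0.30 and 0.29 and was not called. With age Cd36 was the one gene of this list called, at 27.1 ± 3.11 CPM in aged vehicle and 50.8 ± 6.58 CPM in young vehicle libraries (log2 -0.91, edgeR adjusted p = 0.00407).

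Proteins of damaged tissue that are known to engage these receptors were measured as RNA in the same cells. Of 6 endogenous ligands tested, 1 was higher with stroke under bexarotene and 4 under vehicle, and 0 were lower. Vcan, a proteoglycan, averaged 30.2 ± 12.2 CPM in aged stroke bexarotene, against 0.169 ± 0.293 CPM in aged bexarotene libraries, and 42.6 ± 7.84 CPM in aged stroke vehicle, against 0.185 ± 0.181 CPM in aged vehicle libraries. S100a8 and S100a9, which form calprotectin, rose by 2.48 and 2.39 on the log2 scale under vehicle (edgeR adjusted p = 0.0384 and 0.0388) and had 0.96 and 0.66 under bexarotene, not called. Vcan is also in the list of infiltrating monocyte markers, and S100a8 and S100a9 are in that of neutrophil markers, whose sums are given above. Hmgb1, a chromatin protein released from dying cells, was at 0.22 and 0.21, not called.

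Of 16 genes that carry endosomal receptors to their compartment or process them there, 5 were higher and 3 lower with stroke under bexarotene, and 4 were higher and 7 lower under vehicle, beside 48.0% and 48.3% of all genes called in either direction. The list medians were 0.02 and 0.06. Unc93b1, the chaperone that brings the endosomal receptors and Tlr5 out of the endoplasmic reticulum, averaged 1208 ± 82.9 CPM in aged stroke bexarotene, against 1768 ± 27.8 CPM in aged bexarotene libraries, and 1186 ± 60 CPM in aged stroke vehicle, against 1651 ± 7.67 CPM in aged vehicle libraries. It fell in both, with log2 fold changes of -0.55 and -0.48 (edgeR adjusted p = 1.14e-05 and 4.97e-05). The lysosomal proteases Ctsb and Ctsl, which can cut endosomal receptors, rose by 1.14 and 1.1 under bexarotene and by 0.90 and 0.84 under vehicle (largest edgeR adjusted p = 6.12e-05). Slc15a3, an endolysosomal transporter, rose by 1.15 and 1.39.

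In the same list Wdfy1, described as a helper of Tlr3 and Tlr4 signalling, was the one gene called for age. It averaged 30.2 ± 2.10 CPM in aged vehicle and 115 ± 11.1 CPM in young vehicle libraries, a fall of 1.93 on the log2 scale (SE 0.13, edgeR adjusted p = 1.63e-07). Dnase2a, a lysosomal DNase, was the one called for bexarotene in young mice, at 118 ± 5.12 CPM with bexarotene and 90.04 ± 6.62 CPM with vehicle (log2 0.39, edgeR adjusted p = 0.049).

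Among 20 adaptors and proximal kinases, 5 were higher and 3 lower with stroke under bexarotene, and 3 were higher and 4 lower under vehicle, with medians of 0.06 and 0.14. That is 8 of 20 and 7 of 20 called, beside 48.0% and 48.3% of all genes. Myd88, the adaptor shared by all members except Tlr3, averaged 140 ± 21.2 CPM in aged stroke bexarotene, against 102 ± 4.56 CPM in aged bexarotene libraries, and 183 ± 7.60 CPM in aged stroke vehicle, against 108 ± 6.37 CPM in aged vehicle libraries. It rose by 0.45 and 0.76 on the log2 scale (edgeR adjusted p = 0.00219 and 1.49e-05), and its kinase Irak4 rose by 0.72 and 0.69. Ikbke, an inducible kinase of the interferon branch, averaged 28.5 ± 7.55 CPM in aged stroke bexarotene, against 1.37 ± 0.604 CPM in aged bexarotene libraries, and 23.1 ± 3.38 CPM in aged stroke vehicle, against 0.703 ± 0.398 CPM in aged vehicle libraries (edgeR adjusted p = 1.03e-08 and 5.79e-09). Irak2 fell (log2 -0.47 and -0.78), and Ticam1, the adaptor of Tlr3, was at -0.18 and -0.25, not called.

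Of 8 transcription factors, 3 were higher and 4 lower under bexarotene and 2 were higher and 4 lower under vehicle, with medians of -0.18 and -0.12. Irf7, the interferon regulatory factor downstream of Tlr7 and Tlr9, averaged 364 ± 111 CPM in aged stroke bexarotene, against 24.6 ± 3.96 CPM in aged bexarotene libraries, and 436 ± 89.8 CPM in aged stroke vehicle, against 23.4 ± 5.52 CPM in aged vehicle libraries. It rose by 3.89 and 4.22 on the log2 scale (edgeR adjusted p = 2.71e-08 and 1.41e-08). The NF-kappaB subunits Nfkb1 and Rela fell, with log2 fold changes of -0.99 and -0.49 under bexarotene and -0.93 and -0.40 under vehicle (largest edgeR adjusted p = 0.000815). Irf7 was also the one factor called for age, with 23.4 ± 5.52 CPM in aged vehicle and 9.42 ± 2.38 CPM in young vehicle libraries (log2 1.30, edgeR adjusted p = 0.0322).

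Downstream genes had the largest list medians of the pathway lists. Of 10 inducible outputs, 7 were higher and 2 lower with stroke under bexarotene and 8 were higher and 2 lower under vehicle, with medians of 2.59 and 3.48. Tnf, a cytokine, averaged 35.0 ± 8.39 CPM in aged stroke bexarotene, against 4.8 ± 1.2 CPM in aged bexarotene libraries, and 55.3 ± 11.5 CPM in aged stroke vehicle, against 8.24 ± 2.22 CPM in aged vehicle libraries (edgeR adjusted p = 1.48e-07 and 1.55e-07). The chemokine Cxcl10 rose by 4.21 and 4.87 and the chemokine Ccl5 by 3.57 and 2.45. Il6, another cytokine, went the other way, with 4.16 ± 0.642 CPM in aged stroke bexarotene, against 25.2 ± 5.14 CPM in aged bexarotene libraries, and 4.98 ± 2.02 CPM in aged stroke vehicle, against 15.4 ± 3.36 CPM in aged vehicle libraries (edgeR adjusted p = 6.08e-07 and 0.000103).

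Of 12 negative regulators, 4 were higher and 1 lower under bexarotene and 6 were higher and 1 lower under vehicle, with medians of 0.62 and 0.81. Irak3 (IRAK-M), which holds back Myd88 signalling, rose by 0.71 and 0.93 on the log2 scale (edgeR adjusted p = 0.00919 and 0.00149). Tnfaip3 (A20), a deubiquitinase that limits NF-kappaB, fell (log2 -0.34 and -0.55, edgeR adjusted p = 0.0212 and 0.000633). Among 12 sensors of other families, 5 were higher and 3 lower under bexarotene and 7 were higher and 3 lower under vehicle, with medians of 0.46 and 0.93. The RNA sensors Dhx58, Ddx58 and Ifih1 rose by 2.41, 1.29 and 1.67 under bexarotene and by 2.37, 1.44 and 1.75 under vehicle (largest edgeR adjusted p = 5.67e-07).

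Dhx58 was also called higher with age (24.0 ± 3.72 CPM in aged vehicle and 14.4 ± 1.33 CPM in young vehicle libraries, edgeR adjusted p = 0.00255), and Nlrp3, an inflammasome sensor, with bexarotene in young mice (73.1 ± 6.58 CPM with bexarotene and 49.2 ± 3.98 CPM with vehicle, edgeR adjusted p = 0.0298).

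**Figure D5:**
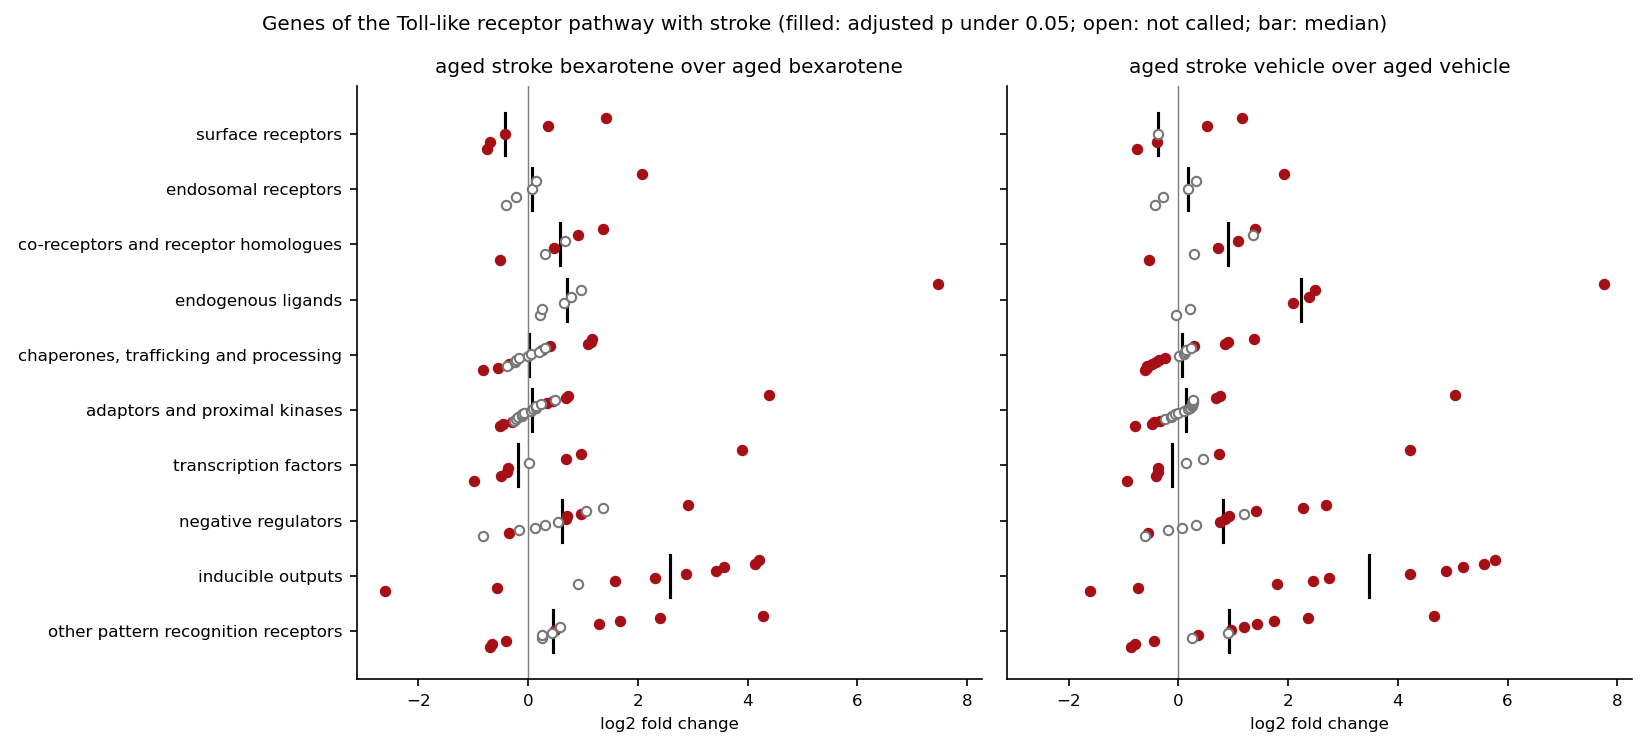
Log2 fold change with stroke (x axis, linear) of each gene in the 2 receptor classes and 8 pathway lists, under bexarotene (left) and vehicle (right). Filled points passed an adjusted p under 0.05, open points did not, and bars are list medians. Inducible outputs have the largest list medians, 2.59 and 3.48, the single gene farthest to the right is Vcan among the ligands, and the receptor classes spread to both sides of 0.

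Tlr11 and Tlr12, endosomal mouse receptors of a parasite profilin that are not among the 10, gave the family's remaining values. Tlr12 had 42.5, 18.8 and 32.95 CPM in aged stroke bexarotene libraries, against 81.8, 84.4 and 57.7 CPM in aged bexarotene libraries. It had 45.8, 33.1 and 25.1 CPM in aged stroke vehicle libraries, against 85.0, 105 and 98.1 CPM in aged vehicle libraries. The groups did not overlap, and Tlr12 fell in both, with log2 fold changes of -1.24 and -1.47 (edgeR adjusted p = 0.000826 and 0.000188). With age its log2 fold change was 0.52 and not called, while the authors' deposited table lists it at 0.37 with an adjusted p of 0.00303. Tlr11 stayed between 0 and 2.43 CPM and was not called in either stroke comparison.

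For the 4 receptors whose group means spread over more than 1 on the log2 scale, the genes with the most similar profile over the 18 libraries were found by the root mean square difference of centred log2 CPM. For Tlr2 these were Cd63, a tetraspanin of late endosomes, at 0.17, Rab32, a small GTPase of lysosome-related organelles, at 0.19, and Gm12537 at 0.19. For Tlr8 they were Clec4a1, a C-type lectin receptor of myeloid cells, at 0.27, Aprt at 0.32 and Trim30a at 0.35. For Tlr4 they were Yae1d1 at 0.12, Mtmr4 at 0.12 and B4galt4 at 0.14, and for Tlr5 Ubox5, Zfp688 and Vamp2, each at 0.23. All of these libraries share the same stroke and no-stroke groups, so the likeness describes those groups and has no test.

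RefSeq promoters (GRCm38.p6, 250 bases before to 50 after the start) were found for 8 of the 10 receptors (Tlr4 and Tlr7 were not searched), as 10 windows of 300 bases, and both strands were searched for 4 motifs. The NF-kappaB consensus was found in Tlr2, where a further match began 8 bases before the start, and in Tlr3, and in 8.46% of all 32851 promoters. The interferon-stimulated response element was found in the printed window of Tlr6, but not in its further window, and in 3.44% of all promoters. The AP-1 site TGANTCA was found in Tlr9 and in 7.81%, and the nuclear receptor core AGGTCA, which RXR dimers can use as part of a longer site, in Tlr2, Tlr5 and Tlr9 and in 16.3%. In the windows of Tlr1, Tlr8 and Tlr13 none of the 4 was found. A match is a run of letters and not a bound site, and no overlap between matches of different motifs was scored.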

How the data were processed

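RNA of CD11b-selected brain cells was sequenced in 18 libraries (SMART-Seq v4 PLUS, per the labels' protocols). The authors deposited whole-number counts per gene, with no normalization, under Ensembl identifiers. The submitters' processing notes name GRCm39 as the genome build and list STAR 2.7.10a, Trimmomatic 0.40, R 4.4.2 and GATK among the tools. What each tool did, the gene annotation and whether strand was used are not stated, so reads shared by similar or overlapping genes are uncertain. Further deposited files hold 4 of the authors' comparisons, with a mean signal per gene (baseMean, a mean of normalized counts per the file headers), a log2 fold change, and a p-value and adjusted p-value. Those tables hold selected genes, 451, 197, 149 and 96 of them, made with a tool that is not stated.

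Symbols and exon lengths came from GENCODE M21 on GRCm38, used for names and lengths only, and 52029 of 57010 genes were named. The 4981 unnamed genes, with 0.339% of the counts, were kept in the tests. Columns of per-sample values left unused numbered 0. Tests used edgeR 4.0.16 under R 4.3.3 (filterByExpr, TMM, 1 robust quasi-likelihood model of the 18 libraries with 12 residual degrees of freedom and a biological coefficient of variation of 0.195), with Benjamini-Hochberg adjustment over 15528 genes and calls at an adjusted p under 0.05. P-values set each difference between groups against the spread between these libraries, as estimated by this 1 model. Counting floors of 3 counts and model intervals (95%) take reads as deposited, without molecular identifiers. Replicates differed by more than sampling noise (chi-square per degree of freedom 5.77 to 36.2), and the tests were tried on simulated counts with known changes.

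Alternatives were size factors from DESeq2, library totals alone, DESeq2 1.42.0, limma voom 3.58.1, no filter, the compared groups alone, a replicate block, and libraries left out. The receptors, the pathway and marker lists and the tests were chosen with earlier results of these data known. All 10 receptors are described, those called with the value in every library, and from each pathway list at most 4 called genes of lowest p per comparison are named, besides Cd14, Hmgb1 and Ticam1, which were named after their values were seen.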

Additional observations from a re-analysis of the deposited data

How the results depend on the processing

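Of 90 receptor values (10 receptors in 9 comparisons) 11 were called. Over their 154 values under the alternatives that bear on each, 145 stayed called, 9 lost the call and 0 changed sign. Of 1226 values for uncalled receptors 12 became calls and 95 had the other sign. For age the count of called receptors was 1 instead of 0 in DESeq2 and without a filter on low counts (Tlr2 in both). Without that filter it was also 1 instead of 0 for bexarotene in aged mice and for bexarotene after stroke (Tlr8 in both). Depending on the setting, calls over all genes also rose there, to at most 339 in aged mice (40 in the main edgeR test) and 419 after stroke (9). Leaving out libraries gave 4 to 6 called receptors for stroke in either comparison and 0 elsewhere. Tlr1 under stroke and bexarotene was not called with library totals alone (log2 0.28, adjusted p = 0.111) or with the pair of groups alone (0.34, adjusted p = 0.0932), and the cause was not tested. The scalings moved the median of all genes by less than 0.1 on the log2 scale.

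Counts over all genes varied more, from 107 to 677 for age (264 in edgeR), 17 to 457 for bexarotene in young mice (79), 9 to 339 in aged mice (40), 1 to 419 after stroke (9), 173 to 931 for treated aged against young mice (482), and from 0 to 138 and 0 to 256 for the 2 differences of the bexarotene effect (0 each). With the replicate block all 90 receptor values kept their side of the threshold, with 5 and 6 called for stroke under vehicle and bexarotene and 0 in the other 7 comparisons, and the genes called for bexarotene after stroke numbered 20. The labels do not say that the numbers pair the libraries. Of 45 correlations of deviations between same-numbered libraries, 26 were over 0.1. Their median was 0.11, against -0.06 between libraries with different numbers. Of 18 libraries, 16 correlated best with their own number, a hint of pairing from the data and not from the design. At 12 to 91 counts per library, Tlr9 allowed only large differences to be seen.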
